A study of Homo sapiens with 6 samples.

Results

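The genes described here are 10 human magnesium transporter genes: the cyclin M family (CNNM1 to CNNM4), the SLC41 family (SLC41A1 to SLC41A3), MRS2 and the channel kinases TRPM6 and TRPM7. They were taken by name, whatever their values, from a table of 32985 genes, and each name matched 1 gene. RNA-seq was performed on 8505C cells, an established line of anaplastic thyroid cancer, at 24 h after siRNA transfection. The siCtrl group (genotype WT, control siRNA) and the siNUF2 group (NUF2 knocked down with the siRNA) had 3 libraries each. Both groups were the same cell line in RPMI-1640 with fetal bovine serum, and poly(A) RNA was read. The knockdown was transient and the study's methods give a single NUF2 siRNA sequence, so the siNUF2 group is a model of that oligonucleotide in a single line. The comparison asks whether transcripts of these transporters differed when NUF2, a kinetochore protein of the NDC80 complex, was depleted.

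Magnesium ions bind ATP and nucleic acids, and cells keep the free ion in a narrow range with channels, exchangers and carriers in several membranes. TRPM6 and TRPM7 are cation channels fused to a kinase and let magnesium into the cell, the first of them mostly in kidney and gut epithelium. SLC41A1 is a sodium-dependent magnesium exporter of the plasma membrane, the CNNM proteins are linked to magnesium efflux, and MRS2 is the magnesium channel of the inner mitochondrial membrane.

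The libraries held between 61257859 and 69755291 counts. Mitochondrial genes took 5.46% to 6.70% of the counts in siCtrl and 6.54% to 7.06% in siNUF2, higher in siNUF2 in all 3 same-numbered pairs, and the 10 largest genes took 6.66% to 7.52% and 7.62% to 7.87%. The part of these shares in the results was not tested. NUF2 was measured first as a check of the labels. It had 14.8, 14.5 and 12.2 FPKM (fragments mapped to a transcript, scaled by its length and by the size of the library) in the siCtrl libraries and 1.53, 2.05 and 1.56 FPKM in the siNUF2 libraries. The siNUF2 mean was 12.4% of the siCtrl mean, and NUF2 fell by 2.99 on the log2 scale (SE 0.17, edgeR adjusted p = 5.1e-04, n = 3 per group). Of the thyroid lineage genes looked at, NKX2-1 was present at 14.6 to 21.5 FPKM and PAX8 at 0.379 to 0.774 FPKM, while TG and FOXE1 were at or near 0 in all libraries. Replicate 1 of both groups also held transcripts of blood cells. HBB, the haemoglobin beta chain, was at 12.4 FPKM in siCtrl replicate 1 and 4.24 FPKM in siNUF2 replicate 1 and at most 0.0728 FPKM in the other 4 libraries, and PTPRC, the pan-leukocyte marker CD45, was at 0.518 and 0.147 FPKM against at most 0.0178 FPKM. The summed level of 4 markers of other cell types (PTPRC, PECAM1, ALB and HBB) ran from 0.377 to 13.2 FPKM in siCtrl and from 0.48 to 4.60 FPKM in siNUF2. Its part in the results was not tested, and the values for MRS2 without replicate 1 are given beside its result.

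Short sequences that the NUF2 siRNA shares with these transcripts are shown first, since a guide RNA pairs with transcripts through its seed. The 7-base word TATGGAA is the DNA-sense complement of positions 2 to 8 of the antisense strand, and ATGGAA is the 6-base word inside it, so that each copy of the longer word is also a copy of the shorter. Both were searched on the sense strand of the longest annotated 3′ UTR of each gene in GENCODE release 44 (GRCh38). The siRNA target lies in the coding sequence of NUF2, in exon 6 of 14. Windows of 21 bases are written 5′ to 3′ on the sense strand of the transcript, with the word in capitals. The first is the NUF2 target, the next 4 are 3′ UTR copies of the 7-base word in the CNNM2, CNNM4 and TRPM6 transcripts, the next 2 are the 6-base copies in MRS2, and the last is ARL15, a CNNM-binding protein described with its list.
NUF2 target, chr1:163336814-163336834, plus strand: gccgtgaaacgtaTATGGAAt
CNNM2, chr10:103087335-103087355, plus strand: ttgctctgggtctTATGGAAt
CNNM4, chr2:96810708-96810728, plus strand: ttatccacccactTATGGAAc
CNNM4, chr2:96811815-96811835, plus strand: ttgctaaacgataTATGGAAt
TRPM6, chr9:74722605-74722625, minus strand: tgctgcactcaacTATGGAAa
MRS2, chr6:24424710-24424730, plus strand: ccaaagtagtgtgcATGGAAg
MRS2, chr6:24424981-24425001, plus strand: agctgcagaacagaATGGAAc
ARL15, chr5:53886236-53886256, minus strand: ggaattcatggctTATGGAAa

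The 7-base word was in the 3′ UTR of 3 of the 10 genes, with 1 copy in CNNM2, 2 in CNNM4 and 4 in TRPM6. Over all tested genes with a 3′ UTR of at least 50 bases it was in 1876 of 10235, or 18.3%. MRS2 held no copy of it and 2 copies of the 6-base word, which 51.0% of the tested genes had. SLC41A1 held 2 copies of the 6-base word, SLC41A2 1 and CNNM1 4. The 3′ UTRs of CNNM3, SLC41A3 and TRPM7 held neither word, and in coding sequence TRPM7 had 3 copies of the 7-base word and TRPM6 had 2. The median log2 fold change of the tested genes searched was -0.09 with the 7-base word and 0.02 without it. For the 6-base word the medians were -0.04 and 0.04. A match is a shared run of letters and does not show that the siRNA bound there.

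MRS2 was the most abundant of the 10 transcripts in siCtrl cells, and it was the gene with the clearest difference after NUF2 knockdown, at 68.2% of the siCtrl mean. None of the other 7 genes with enough signal for a test passed the threshold, and in each of them the libraries of the groups overlapped. CNNM1 and TRPM6 were barely detected. The difference of MRS2 missed the threshold of edgeR's comparison of the groups, and whether it passed depended on the test, the filter and the use of the replicate number.

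In siCtrl cells the mean level ran from 9.62 FPKM for MRS2 down to 0.107 FPKM for TRPM6. FPKM is scaled by transcript length, so levels can be set side by side between genes. MRS2 stood above SLC41A3 (6.80 FPKM), and SLC41A3 above SLC41A1 (5.26 FPKM), with no overlap of their siCtrl libraries. SLC41A1, TRPM7 (4.90 FPKM) and CNNM3 (4.16 FPKM) followed, and neighbours among these 3 overlapped. CNNM4 (2.17 FPKM) lay apart from the genes on both sides of it, CNNM2 (1.47 FPKM) and SLC41A2 (1.23 FPKM) overlapped, and CNNM1 (0.129 FPKM) and TRPM6 overlapped about an order of magnitude lower. The 10 genes together summed to 35.9 ± 0.727 FPKM in siCtrl (SD, n = 3) and 32.1 ± 0.437 FPKM in siNUF2. MRS2 made up 26.8% ± 0.867 of that sum in siCtrl and 20.5% ± 2.80 in siNUF2. The SLC41 genes made up 37.1% and 42.2%, the CNNM genes 22.1% and 22.7%, and the TRPM genes 13.9% and 14.6%. A share also moves when the level of the other genes does. In FPKM the SLC41 genes summed to 13.3 ± 0.387 in siCtrl and 13.6 ± 1.39 in siNUF2. The CNNM genes summed to 7.94 and 7.28 FPKM, and the TRPM genes to 5.01 and 4.69 FPKM.

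**Figure D1:**
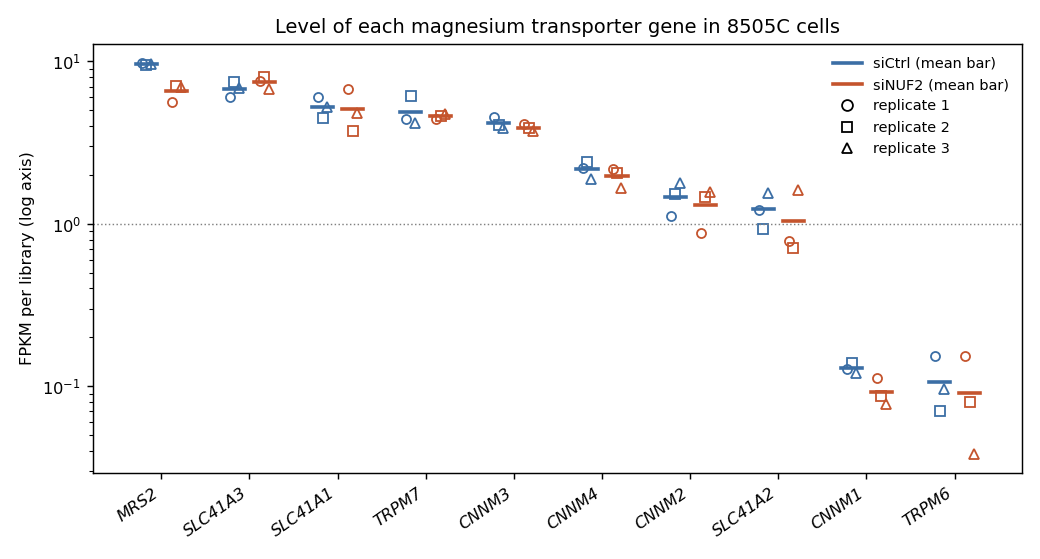
Level of each of the 10 genes in FPKM (log axis) in every siCtrl (blue) and siNUF2 (red) library, ordered by siCtrl mean, with bars for group means, marker shapes for replicate numbers and a dotted line at the test's filter of 1 FPKM. MRS2 is highest at 9.48 to 9.71 FPKM in siCtrl with all siNUF2 libraries below, and CNNM1 and TRPM6 lie far below the dotted line.

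MRS2 (ENSG00000124532, chr6:24402908-24426194 of GRCh38, plus strand), the mitochondrial magnesium channel, was at 9.71, 9.48 and 9.68 FPKM in siCtrl replicates 1 to 3. It was at 5.62, 7.09 and 6.99 FPKM in siNUF2 replicates 1 to 3. The siCtrl libraries lay close together, all siNUF2 libraries were lower than all siCtrl libraries, and siNUF2 replicate 1 was the lowest. In counts, the ranges were 3694 to 4017 and 2234 to 2924. The means were 9.62 ± 0.125 and 6.57 ± 0.821 FPKM (SD, n = 3 each). The log2 fold change, siNUF2 minus siCtrl, was -0.53 (SE 0.12, 95% interval -0.81 to -0.25), with an edgeR adjusted p of 0.0532 and an unadjusted p of 0.00223. When edgeR's model also held the replicate number as a block, it was -0.54 (SE 0.10, 95% interval -0.77 to -0.30, adjusted p = 0.0141). An exact two-sided permutation test gave p = 0.1, the smallest that 3 against 3 allows. In bulk RNA, fewer cells that express a gene and less RNA per cell cannot be told apart. Over the other ways of processing all 6 libraries, the adjusted p ran from 0.00439 with DESeq2 to 0.157 with the block and no filter. It was 0.0391 with a filter of 5 FPKM and no block. The fit with the block and no filter called 0 genes, and NUF2 itself missed the threshold in it (edgeR adjusted p = 0.0617). Without both replicate 1 libraries, an alternative chosen after HBB had been seen there, the log2 fold change of MRS2 was -0.42 (edgeR adjusted p = 0.348, and 0.0359 with the block).

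The 3 tested genes whose values over the 6 libraries were most like those of MRS2, by Pearson's r of log2(FPKM + 1), were RNF126 (r = 0.997), SAMHD1 (r = 0.996) and FAM72C (r = 0.994). These are descriptions over 6 libraries of 2 groups, and 125 tested genes had r above 0.95. The log2 fold change of SAMHD1, a dNTP hydrolase, was -0.60 (edgeR adjusted p = 0.0371), and those of RNF126, a ubiquitin ligase, and FAM72C were -0.29 (adjusted p = 0.149) and -0.31 (adjusted p = 0.267).

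Of the CNNM family, 3 genes were tested and none passed the threshold. CNNM3 (ENSG00000168763, chr2:96816245-96835382, plus strand) was the most abundant of them, at 4.53, 4.06 and 3.90 FPKM in siCtrl and 4.11, 3.88 and 3.75 FPKM in siNUF2. Each siNUF2 library was below the siCtrl library of the same number, and the groups overlapped. The means were 4.16 ± 0.328 and 3.91 ± 0.185 FPKM, and the log2 fold change was -0.07 (SE 0.12, 95% interval -0.34 to 0.20, edgeR adjusted p = 0.814). CNNM4 (ENSG00000158158, chr2:96760902-96811874, plus strand), which transports magnesium out across the basolateral membrane of epithelia, lies next to CNNM3 on the same strand. It was at 2.22, 2.40 and 1.90 FPKM in siCtrl and 2.19, 2.06 and 1.67 FPKM in siNUF2. Replicate 3 was the lowest in both groups, and the groups overlapped. Its log2 fold change was -0.12 (SE 0.18, 95% interval -0.53 to 0.29, edgeR adjusted p = 0.793), and it ran from -0.21 without siCtrl replicate 3 to -0.01 without siNUF2 replicate 3.

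CNNM2 (ENSG00000148842, chr10:102918294-103090222, plus strand), mutated in inherited forms of hypomagnesaemia, was at 1.12, 1.52 and 1.77 FPKM in siCtrl and 0.871, 1.46 and 1.58 FPKM in siNUF2. Replicate 1 was the lowest and replicate 3 the highest in both groups. The spread between replicate numbers exceeded the difference between groups, and each siNUF2 library was below its same-numbered siCtrl library. The log2 fold change was -0.15 (SE 0.25, 95% interval -0.74 to 0.43, edgeR adjusted p = 0.816), and with the replicate block the SE was 0.11 and the adjusted p was 0.343. NT5C2, a nucleotidase gene, overlaps CNNM2 on the opposite strand. It had a mean of 1936 counts per library against 1751 for CNNM2, and the sources used here do not say whether reads were counted by strand, so the reads of the overlap cannot be told apart. NT5C2 was at 3.33, 3.12 and 1.91 FPKM in siCtrl and 3.62, 1.99 and 2.30 FPKM in siNUF2, with replicate 1 the highest in both groups.

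CNNM1 (ENSG00000119946, chr10:99329356-99394330, plus strand) was below the filter of a mean of 1 FPKM and was not part of the test. It had 64, 70 and 56 counts in siCtrl and 54, 44 and 35 in siNUF2, or 0.129 ± 0.0096 and 0.0921 ± 0.0178 FPKM. The siNUF2 libraries all lay below the siCtrl libraries, as they did for 13.4% of all genes tested. In an edgeR fit with no filter its log2 fold change was -0.45 (SE 0.37, adjusted p = 0.634). Summed over the 4 CNNM genes, siCtrl libraries were at 7.69 to 8.12 FPKM and siNUF2 libraries at 7.07 to 7.48 FPKM, which did not overlap. The sum is a description and was not tested, and the groups overlapped for each tested CNNM gene.

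The SLC41 genes split by level, and none passed the threshold. SLC41A3 (ENSG00000114544, chr3:126006355-126101557, minus strand), a family member described at the mitochondrion, was at 6.08, 7.44 and 6.90 FPKM in siCtrl and 7.56, 7.998 and 6.73 FPKM in siNUF2. It was the only tested gene of the 10 with a higher mean in siNUF2, higher in 2 of 3 same-numbered pairs, and the groups overlapped. Its log2 fold change was 0.15 (SE 0.12, 95% interval -0.12 to 0.41, edgeR adjusted p = 0.583).

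SLC41A1 (ENSG00000133065, chr1:205789094-205813748, minus strand), the sodium-magnesium exchanger, was at 6.06, 4.51 and 5.21 FPKM in siCtrl and 6.78, 3.72 and 4.82 FPKM in siNUF2. Replicate 1 was the highest and replicate 2 the lowest in both groups, and the siNUF2 libraries spanned more than the whole siCtrl range. Its log2 fold change was -0.03 (SE 0.22, 95% interval -0.52 to 0.47, edgeR adjusted p = 0.967), and leaving out single libraries moved it between -0.28 and 0.15. SLC41A2 (ENSG00000136052, chr12:104802553-104958744, minus strand), a related carrier, was at 1.21, 0.930 and 1.54 FPKM in siCtrl and 0.778, 0.714 and 1.62 FPKM in siNUF2. Replicate 3 was the highest and replicate 2 the lowest in both groups. The log2 fold change was -0.22 (SE 0.35, 95% interval -1.04 to 0.59, edgeR adjusted p = 0.806), the widest interval of the 8 tested genes, and it ran from -0.70 without siNUF2 replicate 3 to -0.02 without siNUF2 replicate 2.

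**Figure D2:**
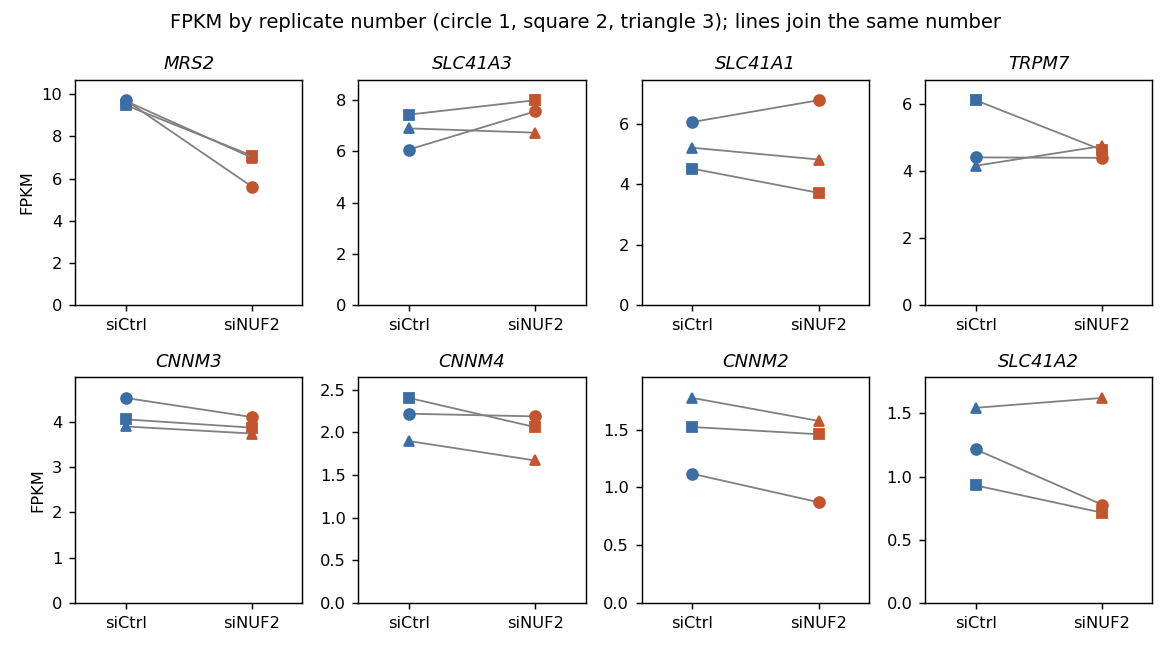
FPKM of the 8 tested genes in siCtrl and siNUF2 cells, 1 panel per gene with its own axis from 0, lines joining libraries with the same replicate number (circle 1, square 2, triangle 3). All lines of MRS2, CNNM2, CNNM3 and CNNM4 slope down, and in CNNM2, CNNM3, SLC41A1 and SLC41A2 the order of the replicate numbers is the same in both groups.

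TRPM7 (ENSG00000092439, chr15:50552473-50686797, minus strand), the widely expressed channel kinase, was at 4.41, 6.12 and 4.17 FPKM in siCtrl and 4.40, 4.63 and 4.75 FPKM in siNUF2. The siCtrl replicate 2 library stood above the other 5, which lay between 4.17 and 4.75 FPKM. The means were 4.90 ± 1.06 and 4.60 ± 0.179 FPKM, and the log2 fold change was -0.07 (SE 0.15, 95% interval -0.42 to 0.27, edgeR adjusted p = 0.860). Without siCtrl replicate 2 it was 0.12. TRPM6 (ENSG00000119121, chr9:74722495-74887921, minus strand), its epithelial relative, was below the filter at 0.153, 0.0705 and 0.0962 FPKM in siCtrl and 0.154, 0.0797 and 0.0384 FPKM in siNUF2. Its counts ran from 53 to 114 in siCtrl and from 26 to 110 in siNUF2, and the groups overlapped. In the edgeR fit with no filter the log2 fold change was -0.21 (SE 0.55, adjusted p = 0.928). The log2 ratio of its mean FPKM turned sign when single libraries were left out, from -0.85 without siNUF2 replicate 1 to 0.13 without siNUF2 replicate 3.

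Counted together, 8 of the 10 genes passed the filter, 7 had a negative log2 fold change and 1 a positive one. Their median was -0.10, beside 0.01 over the 11725 genes tested, of which 48.9% were negative. By edgeR's adjusted p under 0.05, 0 of 8 were called, where 3.99% of all genes tested were (2.46% as lower), and 1 of 8 (MRS2) had an unadjusted p under 0.05, where 18.2% did. DESeq2 called 1, against 8.23% of all genes, and limma on log2(FPKM + 1) called 0, against 3.08%. With the replicate block, 1 of 8 was called and lower, against 14.5% of all genes called in either direction and 7.91% called as lower. All siNUF2 libraries lay below all siCtrl libraries for 1 of the 8, against 13.4% of all genes, and 4 of the 8 were lower in all 3 same-numbered pairs, against 27.8%. The 95% interval lay within -1 and 1 for 7 of the 8, SLC41A2 being the exception. Its lower bound was above -1 for the same 7, and for 91.0% of all genes tested. Apart from MRS2, the intervals include smaller changes in both directions.

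**Figure D3:**
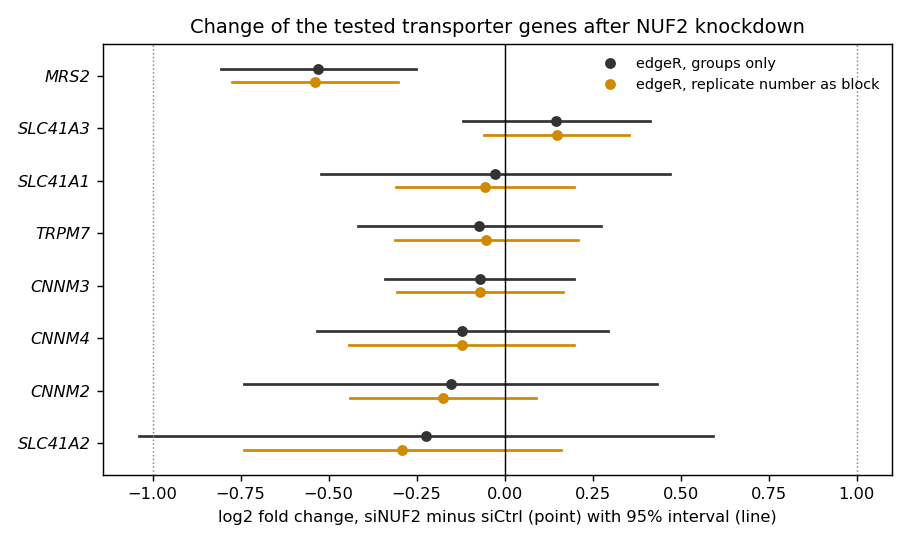
Log2 fold change (siNUF2 minus siCtrl, point) with its 95% interval (line) for the 8 tested genes in edgeR, without (black) and with (orange) a block for the replicate number, with dotted lines at -1 and 1. The intervals of MRS2 lie below 0 in both fits, the other 7 genes' intervals include 0, and the block narrows the interval of SLC41A2 to within -1 and 1.

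The replicate number was tested beside the group. In edgeR's test of that term, chosen after the members' values had been seen, 1 of the 8 genes, CNNM2, passed the threshold (adjusted p = 0.0339), and 7.60% of all genes tested did. Relative to replicate 1, CNNM2 was 0.61 higher in replicate 2 and 0.77 higher in replicate 3 on the log2 scale. SLC41A1 (adjusted p = 0.0593) and SLC41A2 (adjusted p = 0.0796) missed the threshold, at -0.63 in replicate 2 and 0.71 in replicate 3, respectively. For MRS2 the adjusted p of this test was 0.545. What libraries of the same number shared is not given by the labels.

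Of 12 other magnesium transporter genes, 10 were tested, 8 had a negative log2 fold change, 3 fell and none rose, with a median of -0.25. Of all genes tested, 2.46% fell and 1.53% rose. The study itself picked those 3 from these libraries, by cutoffs that included fold change, so that their direction and size are not independent evidence. It also reported lower mRNA by qRT-PCR and lower protein by western blot for them after NUF2 knockdown, which were not analysed here. MAGT1, an oligosaccharyltransferase subunit linked to magnesium uptake, was at 11.7, 12.8 and 15.2 FPKM in siCtrl and 5.85, 4.80 and 6.60 FPKM in siNUF2 (log2 fold change -1.18, edgeR adjusted p = 0.00746). NIPA1 (log2 fold change -1.09, adjusted p = 0.00953) and NIPAL1 (-1.11, adjusted p = 0.0261), both of the NIPA carrier family, also fell. NIPAL1 missed the threshold when any single library was left out (adjusted p from 0.0557 to 0.0945) and with no filter (0.0825). With an F-test on log2(FPKM + 1), the kind of test the study's methods name, none of the 3 passed after adjustment (adjusted p of 0.0904 for MAGT1, 0.0736 for NIPA1 and 0.0959 for NIPAL1). The study's methods name cutoffs on p and fold change and no adjustment of p, so its threshold was not the one used here. With the replicate block 5 of the 10 were called, all lower, against 7.91% of all genes called as lower, the added ones being NIPA2 (log2 fold change -0.41, adjusted p = 0.0184, from 0.193 without it) and ZDHHC13 (-0.47, adjusted p = 0.0494, from 0.126). The highest was TMEM94 at 0.14 (adjusted p = 0.611). The MRS2 difference of -0.53 was smaller in size than those of the 3 that fell. These had been picked partly for their size, and the gap was not tested.

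Of 4 genes for proteins that bind CNNM transporters, 3 were tested. ARL15, a small GTPase that binds CNNM proteins, was at 2.20, 2.43 and 2.43 FPKM in siCtrl and 1.28, 0.913 and 1.09 FPKM in siNUF2. The groups lay far apart, with means of 2.35 ± 0.134 and 1.09 ± 0.182 FPKM (46.5% of siCtrl). ARL15 fell by 1.09 on the log2 scale (SE 0.20, edgeR adjusted p = 0.0242, and 0.00859 with the block), and its adjusted p was between 0.0611 and 0.0974 when single libraries were left out, 0.0776 with no filter and 0.0673 with the F-test on log2(FPKM + 1). PTP4A1, a phosphatase that forms a complex with CNNM proteins, was at 6.44, 5.46 and 4.12 FPKM in siCtrl and 5.23, 3.68 and 11.0 FPKM in siNUF2. A single siNUF2 library, replicate 3, set its positive log2 fold change of 0.33 (adjusted p = 0.712), which was -0.24 without it. PTP4A2 was at 0.04 (adjusted p = 0.871), and PTP4A3 was below the filter.

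Of 14 genes for other cation and ATP-magnesium carriers of the inner mitochondrial membrane, where MRS2 also sits, 13 were tested. Their median log2 fold change was 0.02, 2 fell and none rose, where 3.99% of all genes tested were called. MICU2, a regulator of the mitochondrial calcium uniporter, was at 7.79, 7.59 and 7.73 FPKM in siCtrl and 4.43, 4.52 and 4.62 FPKM in siNUF2 (log2 fold change -0.75, SE 0.11, edgeR adjusted p = 0.0117). SLC25A24, an ATP-magnesium carrier, went from 9.30 ± 0.865 to 5.05 ± 0.491 FPKM (log2 fold change -0.86, SE 0.11, adjusted p = 0.00840). Both sets of groups were well separated. The call of MICU2 was lost without siCtrl replicate 1 (adjusted p = 0.0569) or siNUF2 replicate 1 (adjusted p = 0.0606). SLC25A24 missed it with the F-test (adjusted p = 0.0729). With the replicate block, 4 of the 13 were called, against 14.5% of all genes, LETM1 (log2 fold change 0.32, adjusted p = 0.0351, from 0.277 without it) and LETM2 (0.58, adjusted p = 0.0252, from 0.0756) being the higher ones.

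**Figure D4:**
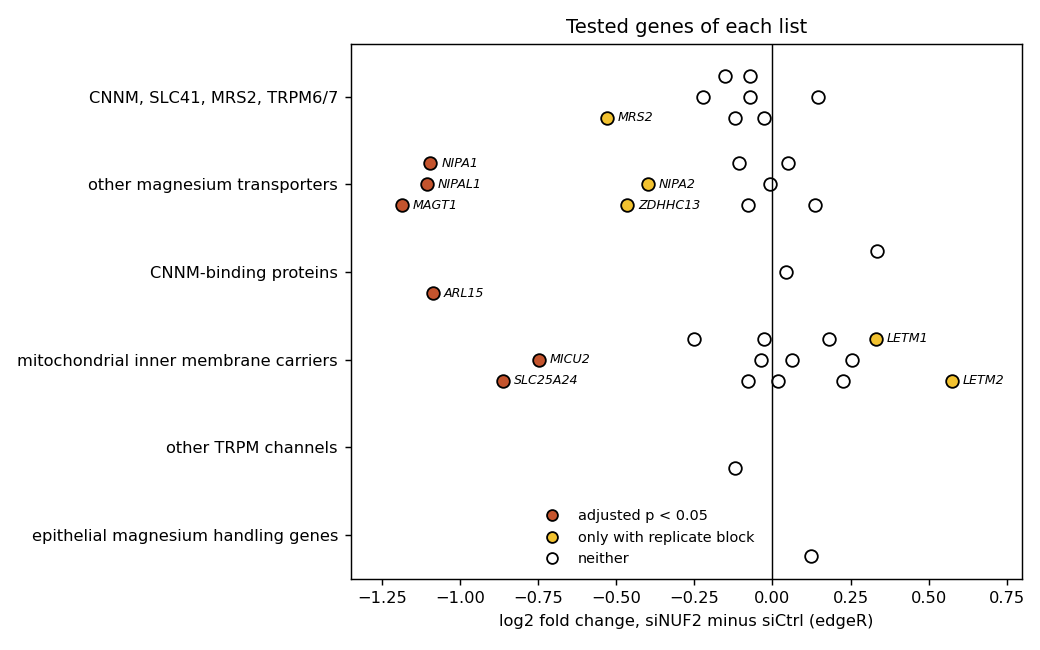
Log2 fold change (siNUF2 minus siCtrl, edgeR) of each tested gene, 1 row of points per gene list, red where the adjusted p was under 0.05, yellow where it was so only with the replicate block and white otherwise. MRS2 at -0.53 is the lowest of its list, MAGT1 at -1.18 is the lowest of all lists shown, and LETM2 at 0.57 the highest.

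Of 5 other TRPM channel genes in the table, TRPM4, a calcium-activated channel, was the only one above the filter, at a log2 fold change of -0.12 (edgeR adjusted p = 0.871). Of 7 genes known for magnesium handling in epithelia, PCBD1, a pterin dehydratase that is also a transcriptional cofactor, was the only one above the filter, at 0.12 (adjusted p = 0.683).

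The copies of the 7-base word can be set beside the log2 fold changes. MRS2, with no copy of the 7-base word and 2 of the 6-base word in its 3′ UTR, had a log2 fold change of -0.53. CNNM4, with 2 copies of the 7-base word, was at -0.12 and CNNM2, with 1 copy, at -0.15. TRPM6, with 4 copies, was below the filter. Outside the 10 genes, copies were listed only for genes of the comparison lists that were called lower, with or without the replicate block. Because these genes were picked by their fall, their copies cannot be compared with the share over all genes. ARL15, MAGT1, NIPA1, NIPAL1 and SLC25A24 each had 1 copy of the 7-base word in the 3′ UTR, and MICU2, NIPA2 and ZDHHC13 had none there. In coding sequence, MAGT1 and MICU2 each had 1 copy. Of the tested genes searched, 18.3% held the 7-base word. The log2 fold change was negative for 64.0% of those with it and for 46.5% of those without it. For the 6-base word these shares were 57.0% and 42.0%. The length of the 3′ UTR, which gives either word more room, was not taken into account. Whether the siRNA acted on any of these transcripts was not tested.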

How the data were processed

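The authors deposited a table of 32985 genes with 2 units, FPKM and counts (whole numbers, not normalized). Per the labels' processing notes, reads were handled with fastp, HISAT2 and StringTie on GRCh38. Versions, annotation, strand setting and the tool behind the counts are not given in the sources used here. All 12 columns of values were used (0 columns of other samples). Genes with a mean of at least 1 FPKM (11725) entered the quasi-likelihood test of edgeR after TMM scaling of the counts, with Benjamini-Hochberg adjustment over all of them and a threshold of 0.05. The code was tested on simulated data. R 4.3.3, edgeR 4.0.16, limma 3.58.1, DESeq2 1.42.0, Python 3.11.15, numpy 2.4.6, pandas 2.3.3 and matplotlib 3.10.9 were used.

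Libraries with the same replicate number deviated together from their group means (r across genes 0.419, 0.345 and 0.447 for numbers 1 to 3), so the numbers pair the libraries. For other numbers r was -0.263 to -0.141. Deviations from a group mean cancel out, so negative values there follow from the positive ones and add no support. The labels do not say what a number shares or whether libraries came from separate cultures, so p-values measure the spread between these libraries, which may be technical. No library was a copy of another (chi-square of counts over degrees of freedom 90.1 to 132 between replicates).

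All 10 genes are named, and of each comparison list every gene past the threshold and otherwise the lowest and highest, with the 3 genes closest to MRS2. Other genes of the lists (PTP4A2, the genes called only with the block) and NT5C2 were named after their values were seen. The members and lists were chosen with earlier results of these data known. Some genes of the marker and comparison lists are not reported here, and not analysed here were the study's protein and magnesium measurements. The alternatives were the replicate block, DESeq2 and its size factors, limma and an F-test on log2(FPKM + 1), limma with a pseudocount of 0.1, other filters and leaving out libraries.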

Additional observations from a re-analysis of the deposited data

How the results depend on the processing

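CNNM1 and TRPM6 had at most 114 counts in a library and were not tested, and with 3 libraries a group leaving out single ones moved small differences across 0. The total of 468 genes past the threshold was 1705 with the replicate block, 965 with DESeq2, 78 with the F-test, 188 without a filter and 124 to 251 with a library left out. Among alternatives added after seeing the data it was 0 with the block and no filter (3894 at an unadjusted p under 0.05), and 0, 47 and 39 without both libraries of replicate 1, 2 or 3 (1223 at an unadjusted p under 0.05 for replicate 1), or 1193, 1771 and 1020 with the block. The cause was not tested. Of the 10 genes, 1 (MRS2) was called with the block, with DESeq2 and with a filter of 5 FPKM, which only MRS2, SLC41A1 and SLC41A3 passed, and in the 3 block fits without a replicate number. The log2 fold change of MRS2 was -0.54 with the block, -0.53 with DESeq2 and -0.55 with that filter, and -0.42, -0.62 and -0.58 in the 3 block fits. Its adjusted p was 0.0737 to 0.161 with a library left out. The block changed the call of no other of the 10 genes. The sign turned for CNNM2 (-0.32 to 0.0724 with a library left out), SLC41A1 (-0.28 to 0.15, 0.0521 without both replicate 2 libraries, 0.0371 with the block, and 0.0060 without both replicate 3), TRPM7 (-0.17 to 0.12, 0.11 without both replicate 2 and 0.10 with the block), TMEM94 (-0.0024 and -0.0009 without both replicate 2), PTP4A1 (-0.24 to 0.62, and -0.40 and -0.41 without both replicate 3), TRPM4 (-0.39 to 0.11) and the log2 FPKM ratio of TRPM6 (-0.85 to 0.13). None of those tested passed the threshold. Without both replicate 1 libraries NUF2 was at -2.85 (adjusted p = 0.0577), and none of the genes of the lists was called, against 4 other magnesium transporters, ARL15 and 2 mitochondrial carriers with the block. The median of all genes stayed between -0.0145 and 0.0137 under every setting.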
